A study of Mus musculus with 12 samples.

Results

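The mitochondrially encoded genes of mouse were followed as naive embryonic stem cells (ESCs) turned into epiblast-like cells (EpiLCs). They were taken as every row on chrM of the deposited count table, 35 of 51467 genes, and comprise 13 messenger genes and 22 transfer RNA genes by the GENCODE annotation. The 2 ribosomal RNA genes of chrM were removed from the annotation by the authors before counting and have no row. All 35 positions and strands in the table were those of GENCODE M21 on mm10.

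The study asked how transcription and RNA stability each shape RNA levels in this transition. ESCs were grown in serum with LIF and the 2 inhibitors of the 2i medium (PD0325901 and CHIR99021). EpiLCs were made by removing LIF and 2i from the same kind of culture and were collected about 56 h later. Every group was fed 4-thiouridine (4sU), a uridine analogue, at 500 µM for 30 min, and the TRIzol RNA was then split. Labelled RNA was biotinylated and pulled down for the 4sU libraries, a measure of newly made RNA. The total libraries were made from RNA depleted of ribosomal RNA. The 4 groups (ESC 4sU, EpiLC 4sU, ESC total and EpiLC total) had 3 libraries each, of 3097693 to 5385644 reads for 4sU RNA and 9300845 to 21975684 for total RNA. Per the study's methods, the differentiation used a V6.5 mouse ESC line that carries miR290-mCherry and miR302-GFP reporters, which is 1 line. The study calls its replicates biological. The labels do not say whether the libraries of a group came from separate cultures, so p-values measure the spread between these libraries, which may be technical.

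All 6 naive markers were lower in EpiLCs and all 4 formative markers were higher, in both kinds of RNA (limma-voom, adjusted p under 0.05 and a log2 difference beyond 1). A list of 6 fibroblast feeder markers summed to 3.88 to 4.68 CPM (reads scaled to library depth) in ESC total RNA and 14.6 to 18.9 in EpiLC total RNA, with 2 of 6 at 0 in every ESC total library. In 4sU RNA the sums were 2.04 to 2.71 in ESCs and 4.45 to 5.34 in EpiLCs. Their part in the results was not tested. ESC replicate 3 stood apart from the other ESC libraries in both kinds of RNA on the third principal component, which held 2.29% of the variance. Results that rest on it are therefore also given without it.

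Mitochondrial DNA is a small circle that is transcribed on both strands into long precursors. The heavy strand is read into most of the messenger RNAs, here on the plus strand of the annotation, and the light strand into a single messenger, mt-Nd6, here on the minus strand. Transfer RNAs lie between most of the messengers, and cutting them out releases the messenger RNAs. The 13 proteins are subunits of respiratory complexes I, III and IV and of ATP synthase, which are completed by many subunits encoded in the nucleus. Mitochondrial RNA is made and degraded inside the organelle, by enzymes other than those that act on nuclear transcripts.

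The genes are distributed unevenly over the strands. On the plus strand lie 12 messenger and 14 transfer RNA genes, and on the minus strand 1 messenger and 8 transfer RNA genes. The messenger RNAs also differ in uridine, the base that 4sU replaces. Uridine made up 43.7% of mt-Nd6 (227 of 519 bases) and 27.4% (mt-Nd2) to 32.8% (mt-Nd3) of the other 12. The first 30 bases of 4 messengers that the results below turn on are given in the sense of the RNA, from GENCODE M21 on mm10, with T for U and each T in capitals. They lie at chrM:14041-14070 on the minus strand (mt-Nd6) and, on the plus strand, at chrM:11742-11771 (mt-Nd5), chrM:14145-14174 (mt-Cytb) and chrM:5328-5357 (mt-Co1).
mt-Nd6: aTgaaTaaTTaTaTTTTTgTTTTaagTTca
mt-Nd5: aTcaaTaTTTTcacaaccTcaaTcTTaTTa
mt-Cytb: aTgacaaacaTacgaaaaacacacccaTTa
mt-Co1: aTgTTcaTTaaTcgTTgaTTaTTcTcaacc
These stretches held 16, 12, 4 and 13 T, respectively. Over the whole genes uridine made up 43.7%, 28.6%, 29.2% and 30.6%, so the stretches do not stand for the genes. Labelled RNA is captured through its uridines, and whether uridine content changed capture was not tested.

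Of the 35 genes, 17 had at least 3 CPM in at least 3 libraries and were tested, 7 of 13 messenger and 10 of 22 transfer RNA genes. The 7 messengers were mt-Nd1, mt-Nd2, mt-Nd4, mt-Nd5 and mt-Nd6 (complex I), mt-Cytb (the only mitochondrial subunit of complex III) and mt-Co1 (the catalytic subunit of complex IV, cytochrome c oxidase). The other 6 messengers had at most 1 read in each of the 12 libraries. They were mt-Co2 and mt-Co3 (complex IV), mt-Atp6 and mt-Atp8 (ATP synthase), and mt-Nd3 and mt-Nd4l (complex I). Of these, 4 were at 0 throughout, mt-Co2 had 1 read in 1 library, and mt-Atp6 had 1 read in each of 2 libraries. These genes are neighbours. From mt-Ts1 to mt-Nd4l, chrM:6870-10173, 11 genes in a row (6 messenger and 5 transfer RNA genes over 3304 bases) had at most 1 read in any library. A count of 0 limits reads that were counted here, after alignment to a single position, and says nothing of the RNA in the cells.

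The messengers of the empty stretch, except mt-Atp8, coincided with copies of mitochondrial DNA in the nuclear genome. Reads were kept only when they aligned to 1 position, and a read that matches a nuclear copy equally well has no single position. Every 50-base window, the length of a read, was therefore compared with all annotated nuclear transcripts. All 635 windows of mt-Co2 were copied exactly, as were 99.9% of mt-Co3, 99.5% of mt-Atp6, 98.8% of mt-Nd4l and 98.0% of mt-Nd3. The share was 62.2% for mt-Nd4, 51.1% for mt-Co1, 8.19% for mt-Nd2 and 7.61% for mt-Nd5, and no window of mt-Nd1, mt-Nd6 or mt-Cytb was copied. Among the messengers mt-Atp8 was the exception, with 0 reads and no copied window among annotated transcripts. It lies between mt-Co2 and mt-Atp6, and the nuclear sequence between the annotated copies was not used here. The 5 transfer RNA genes of the empty stretch likewise had 0 reads and no copied window inside them. The counted reads of the copies themselves were few, but the same rule drops reads that match a copy and its mitochondrial gene equally well. These counts therefore do not measure how far the copies are expressed. The copies of mt-Co2, mt-Atp6, mt-Co3 and mt-Nd4l on chromosome 1 had at most 5 reads in any library, and the copy of mt-Nd3, Gm28438, had 13 to 87 reads in the 4sU libraries and 5 to 10 in the total libraries.

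Pairs of 30-base sequences show how a copied and a partly copied gene differ. A stretch of mt-Co2 (chrM:7353-7382, plus strand) was identical to its copy Gm28661 (chr1:24615196-24615225, minus strand).
mt-Co2: aagacctatgctttgattcatatataatcc
Gm28661: aagacctatgctttgattcatatataatcc
Over their whole aligned length, 681 bases, these 2 sequences had 0 mismatches. mt-Co1 aligned to Gm13340 on chromosome 2 over 1545 bases with 37 mismatches. Its bases at chrM:5367-5396 (plus strand) and those of Gm13340 at chr2:22589579-22589608 (minus strand) differed at 2 places, shown in capitals.
mt-Co1: gatatcggaaccctCtatctActattcgga
Gm13340: gatatcggaaccctAtatctGctattcgga
Reads over such places can be told apart. Of the read positions assignable to mt-Co1, 765 of 1594 were copied exactly, and of those of mt-Nd4, 820 of 1323. Levels of these 2 genes per full length are thus lower bounds on the same scale, which matters for ranking genes but not for comparing a gene with itself between groups.

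**Figure D1:**
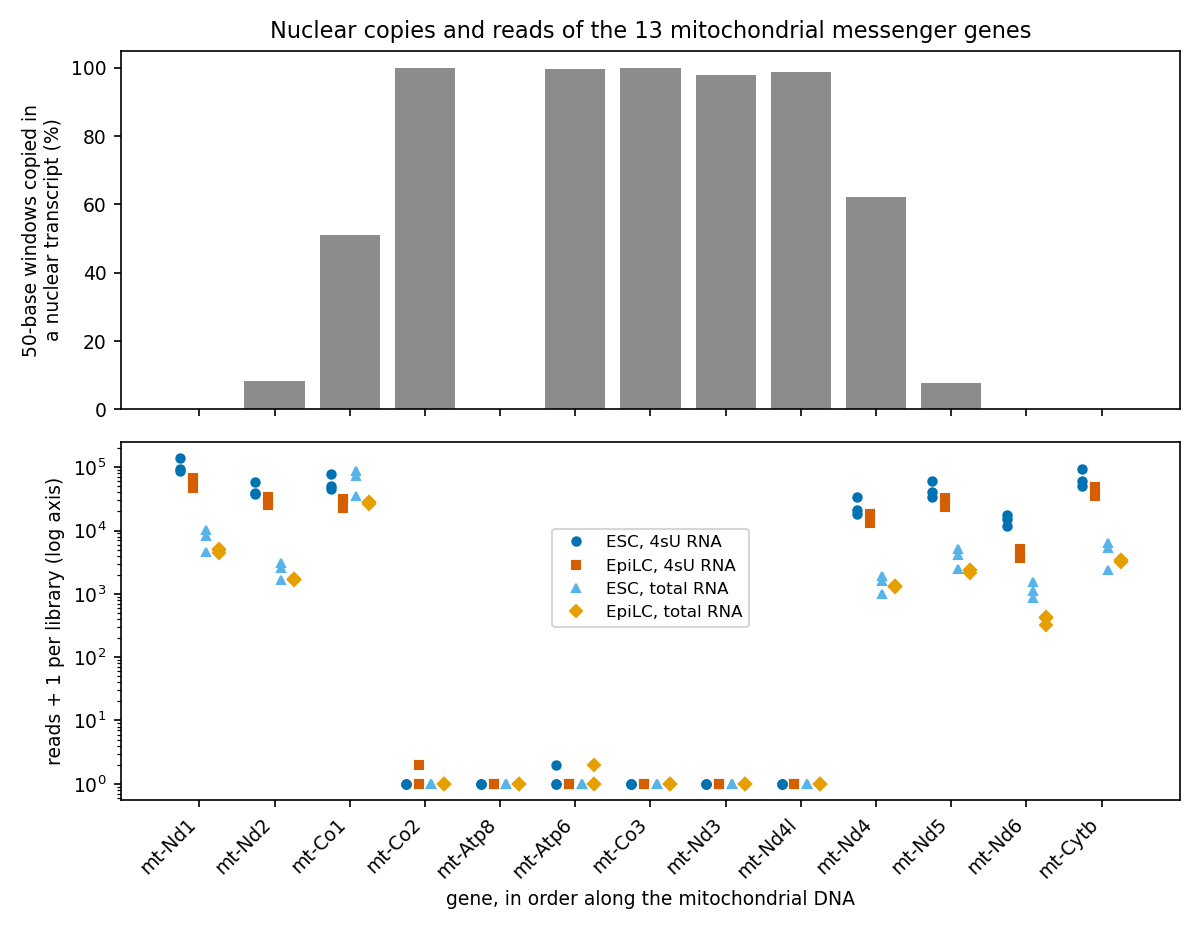
Nuclear copies and reads of the 13 mitochondrial messenger genes in genome order. The bars give the percent of 50-base windows of each gene found exactly in an annotated nuclear transcript, and the points give reads plus 1 in each of the 12 libraries on a log axis. From mt-Co2 to mt-Nd4l no library had more than 1 read of a gene, and 98.0% or more of the windows were copied except for mt-Atp8, which had none copied.

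Reads of chrM genes filled a far larger share of the 4sU libraries than of the total libraries, and in both the share was lower in EpiLCs. The study's methods state depletion of ribosomal RNA for total RNA only. The part of this difference in preparation in the shares was not tested. In 4sU RNA, chrM genes took 6.94%, 8.95% and 8.36% of reads in ESCs and 5.56%, 5.48% and 5.55% in EpiLCs. In total RNA they took 0.494%, 0.525% and 0.441% in ESCs and 0.420%, 0.392% and 0.408% in EpiLCs. The cell types did not overlap in either assay. The ESC mean was 1.46 times the EpiLC mean in 4sU RNA and 1.20 times in total RNA (exact two-sided permutation p = 0.1 in each, n = 3 against 3, the smallest p this design allows). Without ESC replicate 3 the ratios were 1.44 and 1.25. In total RNA the lower share went with mt-Co1. mt-Nd6 was lower there as well, but held only 1.43% of the chrM reads in ESCs and 0.935% in EpiLCs. Without mt-Co1, a share added after the data had been seen, chrM genes took 0.123% ± 0.0055 (SD, n = 3) of total RNA reads in ESCs and 0.137% ± 0.0054 in EpiLCs, higher in EpiLCs without overlap (exact two-sided permutation p = 0.1). After TMM scaling (trimmed mean of M-values) the same shares were 0.136% and 0.143% and overlapped (exact p = 0.2). In 4sU RNA the share without mt-Co1 stayed lower in EpiLCs, at 6.80% ± 0.87 in ESCs and 4.80% ± 0.030 in EpiLCs. In bulk RNA, fewer mitochondria, less RNA per mitochondrion and fewer cells of a type cannot be told apart. Nearly all chrM reads lay on messenger genes, and transfer RNA genes held 0.680% ± 0.087 (SD, n = 3) of them in ESC 4sU RNA and 0.431% ± 0.042 in EpiLC 4sU RNA.

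Per length, mt-Nd1 led the labelled RNA and mt-Co1 led total RNA. Levels are given as RPKM (reads scaled to gene length and library depth). In ESC 4sU RNA, mt-Nd1 stood at 24800 ± 3135 (SD, n = 3), mt-Cytb at 13061 ± 1724, mt-Nd2 at 9692 ± 1570, mt-Co1 at 8311 ± 1046, mt-Nd6 at 6615 ± 1832, mt-Nd5 at 5423 ± 621 and mt-Nd4 at 3904 ± 607. The ranges of mt-Nd2 and mt-Co1, of mt-Co1 and mt-Nd6, and of mt-Nd6 and mt-Nd5 overlapped in this order, whereas the other neighbours did not. In EpiLC 4sU RNA no neighbours overlapped, and mt-Nd6 had moved to the bottom, at 2231 ± 94, below mt-Nd4 at 3097 ± 39. The places of mt-Co1 and mt-Nd4 depend on the copied positions. Over read positions free of nuclear copies, a count added after the data had been seen, mt-Co1 came next after mt-Nd1 in ESC 4sU RNA, at 15489 ± 1950, and mt-Nd4, at 10696 ± 1662, stood above mt-Nd6 (6615) and mt-Nd5 (5856). mt-Nd6 remained the lowest gene in EpiLC 4sU RNA on this scale.

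In total RNA the order changed. In ESC total RNA, mt-Co1 had 2423, 2562 and 2079 RPKM, and in EpiLC total RNA it had 1795, 1686 and 1744. The next gene, mt-Nd1, had 450, 486 and 427 in ESCs and 493, 475 and 510 in EpiLCs. mt-Co1 was thus 5.18 ± 0.27 times mt-Nd1 in ESC total RNA and 3.54 ± 0.11 times in EpiLC total RNA, but 0.335 ± 0.008 and 0.298 ± 0.008 times in the 4sU RNA of the same cell types. mt-Co1 alone made up 74.9% ± 1.35 of the messenger reads of chrM in ESC total RNA and 66.4% ± 0.2 in EpiLC total RNA, against 15.7% to 16.1% and 13.1% to 13.4% in the 4sU libraries. The remaining 5 genes had 63.5 (mt-Nd4) to 227 (mt-Cytb) RPKM in ESC total RNA. Their order there was mt-Cytb, mt-Nd2, mt-Nd6, mt-Nd5 and mt-Nd4, of which mt-Nd2 and mt-Nd6, and mt-Nd6 and mt-Nd5, overlapped. In EpiLC total RNA, mt-Nd6 was again the lowest, at 73.1 ± 5.2, and no neighbours overlapped. When only read positions free of nuclear copies were counted, mt-Co1 was 9.13 times mt-Nd1 in ESC total RNA and 0.591 times in ESC 4sU RNA. On that scale mt-Nd4 was not the lowest in ESC total RNA but came after mt-Cytb, at 174 ± 7.9, followed by mt-Nd2 at 155, mt-Nd5 at 133 and mt-Nd6 at 132.

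**Figure D2:**
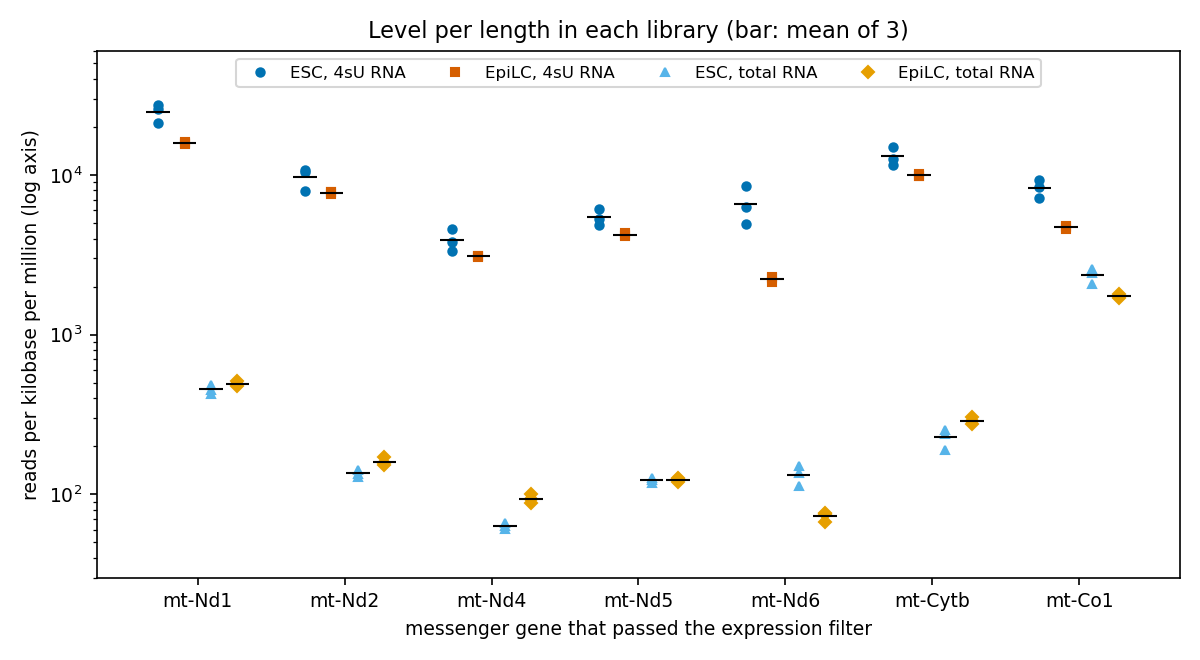
Level per length of the 7 messenger genes that passed the expression filter, in RPKM on a log axis. Points are single libraries and bars are means of 3. mt-Co1 stands between 1686 and 2562 in the total libraries, where every other gene is at 510 or below. mt-Nd6 has a mean of 6615 in ESC and 2231 in EpiLC 4sU RNA.

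Total RNA was set against 4sU RNA within each cell type, the ratio that the study read as relative stability. The 2 kinds of library were also prepared differently, as ribosomal RNA depletion is stated for total RNA only. The part of preparation in this ratio was not tested. The 7 messengers passed the expression filter in every library. All 7 were lower in total than in 4sU RNA in both cell types (limma-voom, adjusted p under 0.05 and a log2 difference below -1), where 26.8% of the 14731 genes tested were lower in ESCs and 23.3% in EpiLCs. Their median log2 difference was -5.53 in ESCs and -4.88 in EpiLCs, and that of all genes tested was 0.03 and 0.15. Of the 10 transfer RNA genes tested, 8 were below 3 CPM in every total library and mt-Tv in 4 of 6. These 9 would not have passed the filter on the total libraries, so that it favoured genes lower in total RNA. Their values are given only as a description. The remaining one, mt-Tm, passed on the total libraries too and was lower in ESCs (log2 difference -2.02, SE 0.47) but did not pass in EpiLCs (-1.22, SE 0.60, adjusted p = 0.079), although it did when ESC 4sU replicate 3, ESC total replicate 3 or EpiLC total replicate 1 was left out.

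Within the messengers, 6 stood close together and mt-Co1 stood apart. The complex I genes mt-Nd1, mt-Nd2, mt-Nd4, mt-Nd5 and mt-Nd6 and the complex III gene mt-Cytb lay between -5.92 (mt-Nd2, SE 0.11) and -5.23 (mt-Nd5, SE 0.09) on the log2 scale in ESCs, and between -5.44 (mt-Nd2, SE 0.11) and -4.77 (mt-Nd6, SE 0.18) in EpiLCs. mt-Co1 was at -1.59 (SE 0.10) in ESCs and -1.27 (SE 0.10) in EpiLCs. Its total RNA was therefore 3.01-fold below its 4sU RNA in ESCs, against 37.5-fold for mt-Nd5 and 60.7-fold for mt-Nd2. The difference between mt-Co1 and the other messengers was not tested.

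The transfer RNA genes were spread more widely. mt-Tl1, a leucine transfer RNA that follows the 16S ribosomal RNA gene, had the lowest value, -9.18 (SE 0.45) in ESCs and -7.19 (SE 0.47) in EpiLCs. It had 1247, 2056 and 1261 reads in ESC 4sU RNA but 12, 6 and 8 in ESC total RNA. mt-Tm (methionine) was the closest to 0 and had 106, 99 and 182 reads in ESC 4sU RNA and 89, 78 and 183 in ESC total RNA. A mature transfer RNA is little longer than a read, and reads that run beyond its ends also count for its row. For mt-Tl1, 49 of the 75 read positions that could be assigned to it ran into the 16S gene, which had no row, and for mt-Tv (valine), which lies between both ribosomal RNA genes, this held for 98 of 118. Precursors and mature transfer RNAs could not be told apart in these counts. Whether the depletion of ribosomal RNA lowered such reads in the total libraries was not tested.

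**Figure D3:**
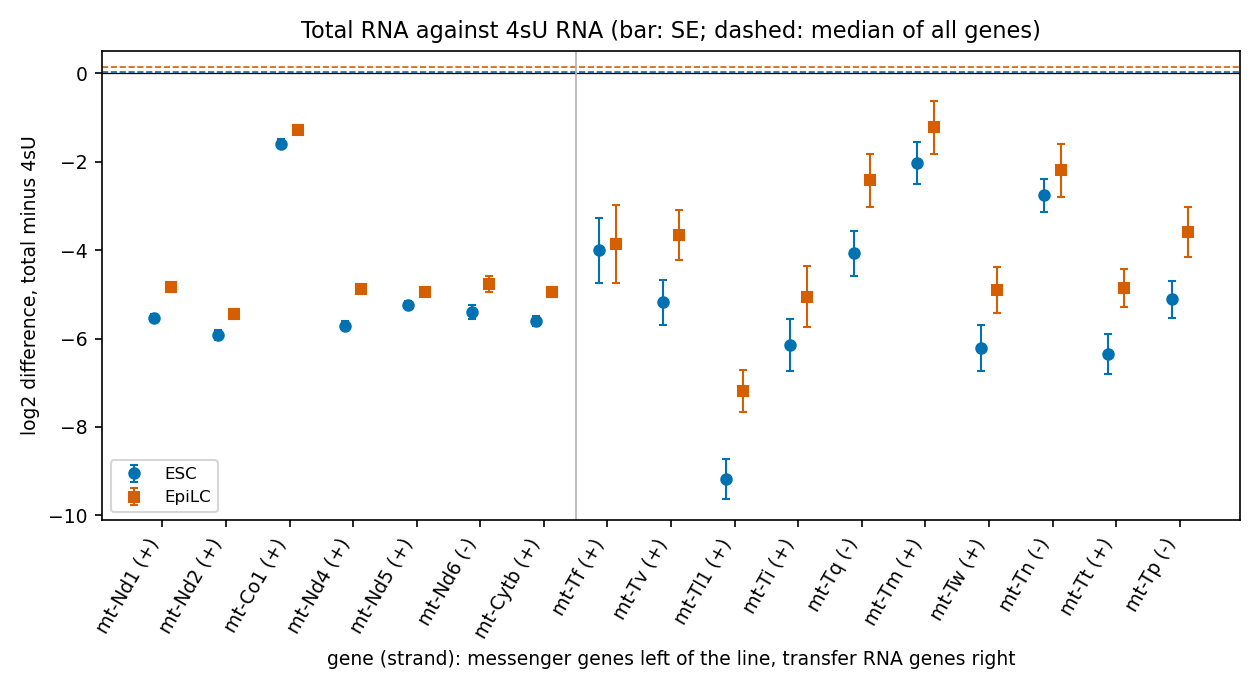
Log2 difference between total and 4sU RNA for the 17 genes tested, in ESCs and EpiLCs. Points are limma-voom estimates with their SE, dashed lines are the medians of all genes tested, and the sign beside each gene is its strand. The messengers lie below 0, mt-Co1 is at -1.59 and -1.27 while the other messengers lie at -4.77 or below, and mt-Tl1 is lowest; of the transfer RNA genes, mt-Tm alone passed the expression filter on the total libraries.

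In 4sU RNA, EpiLCs had less mitochondrial RNA than ESCs for all 7 messengers (adjusted p under 0.05), and mt-Nd6 was the messenger called lower. mt-Tn and mt-Tq passed the expression filter only through the ESC 4sU libraries (3.53 to 6.95 CPM and 4.64 to 9.27 CPM, against 0.921 to 1.29 and 2.26 to 2.99 in EpiLC 4sU RNA), so a lower level in EpiLCs was fixed by the filter and they are left out of the counts that follow. Of the remaining 15 genes, 3 were called lower, mt-Nd6, mt-Tl1 and mt-Tp, where 13.5% of all genes tested were called lower. None was called higher, against 11.9% of all genes tested. mt-Tf rested on ESC replicate 3 (78 reads, against 16 and 22 in the other ESC libraries), and without that replicate it was at 0.42. By adjusted p under 0.05 alone, 11 of the 15 were lower, against 28.8% of all genes tested. The level of 11 of the 15 did not overlap between the cell types, EpiLCs being lower in each, against 34.1% of all genes tested. The median log2 difference was -0.66 for the 15 genes and -0.41 for the 7 messengers, and -0.09 for all genes tested.

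mt-Nd6, the complex I subunit of the minus strand, changed more than any other messenger. On the scale of CPM after TMM scaling, it had 2379, 3155 and 4167 in ESC 4sU RNA and 1038, 1087 and 1095 in EpiLC 4sU RNA. The 2 ranges were far apart, with ESC replicate 3 the highest library. The log2 difference was -1.55 (SE 0.15, limma-voom adjusted p = 1.19e-06), and without ESC replicate 3 it was -1.38 (adjusted p = 1.21e-10). The complex IV gene mt-Co1 came next, with 10295, 13818 and 12213 CPM in ESCs and 6919, 6561 and 6799 in EpiLCs, a log2 difference of -0.83 (SE 0.10, adjusted p = 9.54e-06).

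The remaining messengers were lower by less. For mt-Nd1 the log2 difference was -0.66 (SE 0.09, adjusted p = 2.55e-05), with 18828, 25125 and 23184 CPM in ESCs and 14081, 14084 and 14024 in EpiLCs. mt-Cytb was at -0.41, mt-Nd5 at -0.37, mt-Nd4 at -0.35 and mt-Nd2 at -0.33, with SEs of 0.08 to 0.11 and adjusted p of 0.0015 to 0.013. Except for mt-Nd2, whose ESC replicate 1 (7580 CPM) fell within the EpiLC range of 7252 to 7679, the messengers did not overlap between the cell types.

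Among the transfer RNA genes, mt-Tl1 on the plus strand and mt-Tp (proline) on the minus strand were called. mt-Tl1 had 255, 368 and 342 CPM in ESC 4sU RNA and 106, 118 and 137 in EpiLC 4sU RNA (log2 difference -1.41, SE 0.13, adjusted p = 1.08e-06). mt-Tp had 88, 146 and 136 reads in ESCs and 28, 36 and 27 in EpiLCs (-1.76, SE 0.30, adjusted p = 0.00021). mt-Tn (asparagine) had 17, 19 and 24 reads in ESCs and 5, 4 and 4 in EpiLCs, and mt-Tq (glutamine) 21, 26 and 32 against 11, 13 and 7. Both are on the minus strand, and their fitted values, -1.84 (SE 0.44) and -1.06 (SE 0.44), are given without a test because the filter chose them by ESC 4sU RNA. mt-Tn and mt-Tq each fell below the expression filter when any ESC 4sU library was left out. Of the 5 minus-strand transfer RNA genes that were not tested, mt-Te (glutamate) had 13, 20 and 13 reads in ESC 4sU RNA and 5, 0 and 1 in EpiLC 4sU RNA, mt-Ta (alanine) had 8, 3 and 10 against 1, 1 and 1, mt-Tc had at most 3 in any library, and mt-Ty and mt-Ts1 had 0. On the plus strand, 7 of 14 transfer RNA genes were tested. Besides mt-Tl1, mt-Ti (-0.91) and mt-Tv (-0.84) had an adjusted p under 0.05, and without ESC 4sU replicate 1 both were called (-1.16, adjusted p = 0.0045, and -1.07, adjusted p = 0.018). The genes mt-Tm, mt-Tt, mt-Tw and mt-Tf lay between -0.72 and -0.23 and did not pass.

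Messenger RNA in the total libraries changed less, except that of mt-Nd4 (-0.35 in 4sU RNA and 0.48 in total RNA). No gene of the 17 was called, where 27.6% of all genes tested were. Counting an adjusted p under 0.05 alone, 3 of the 17 passed, against 63.5% of all genes tested. The 17 include transfer RNA genes with few reads in total RNA. Of the 8 genes that passed the expression filter on the total libraries, 0 were called and 3 had an adjusted p under 0.05. mt-Nd6 was lower in EpiLCs, with 65.1, 77.6 and 84.3 CPM in ESCs and 36.2, 41.2 and 40.9 in EpiLCs (log2 difference -0.93, SE 0.19, adjusted p = 0.00056), and without ESC total replicate 1 the difference, -1.05, was past the fold for a call. mt-Co1 was lower as well, with 4188, 4378 and 3481 CPM against 2877, 2695 and 2816 (-0.52, SE 0.10, adjusted p = 0.00040). mt-Nd4 was higher, with 93.2, 97.2 and 98.9 CPM against 144, 126 and 134 (0.48, SE 0.12, adjusted p = 0.0023). None of these 3 genes overlapped between the cell types. Of the 8 genes that passed the filter on the total libraries, 3 were lower in EpiLCs without overlap (35.1% of all genes tested) and 3 were higher without overlap (33.5%). Over all 17 genes the counts were 4 and 3, the 4 including mt-Tn, which the filter chose by ESC 4sU RNA. The other messengers lay between -0.08 (mt-Nd5) and 0.26 (mt-Cytb), with adjusted p of 0.078 to 0.81. The transfer RNA genes in the total libraries had at most 183 reads in a library (mt-Tm), and all but mt-Tm and mt-Tv had at most 16, so that differences of these genes were hardly detectable at this depth.

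**Figure D4:**
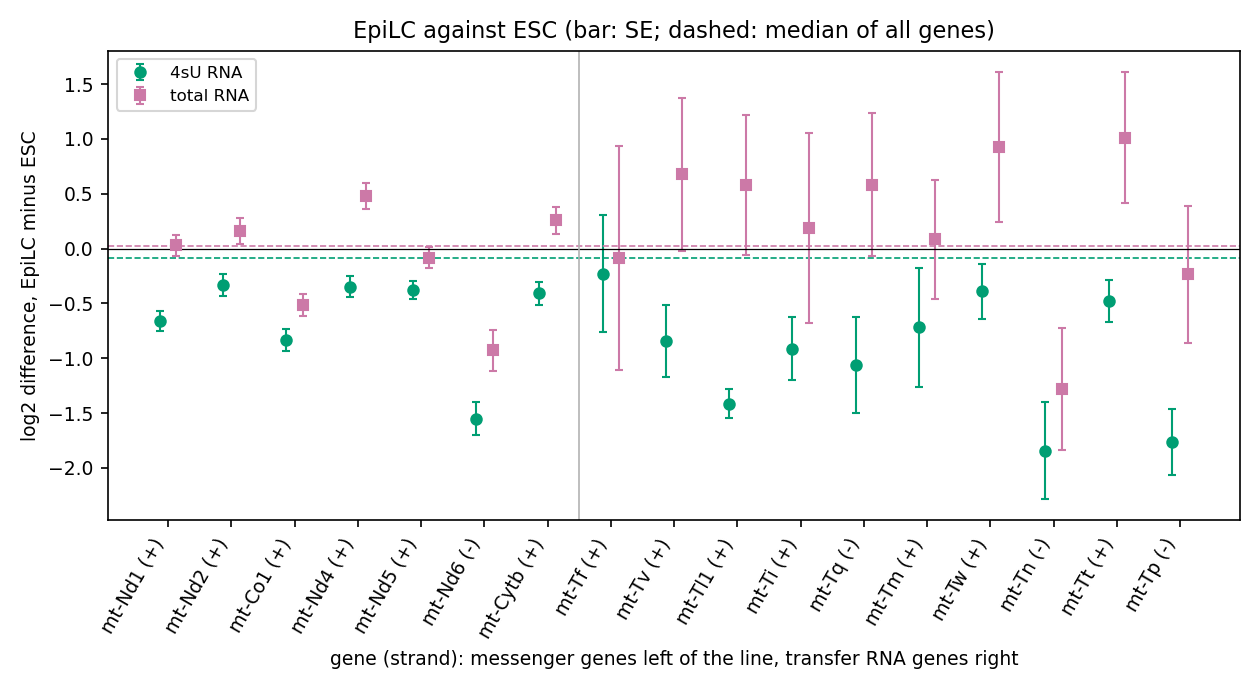
Log2 difference between EpiLCs and ESCs in 4sU RNA and in total RNA for the 17 genes tested, as limma-voom estimates with their SE; dashed lines are the medians of all genes tested. In 4sU RNA all points lie below 0 and mt-Nd6, mt-Tn and mt-Tp, all on the minus strand, are lowest at -1.55, -1.84 and -1.76, of which mt-Tn passed the expression filter only through ESC 4sU RNA. In total RNA mt-Nd6 and mt-Co1 are below 0 and mt-Nd4 above 0.

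The share of chrM reads on the minus strand was lower in EpiLCs, and nearly all of these reads were of mt-Nd6. Minus-strand genes held 3.75%, 3.70% and 5.40% of the chrM reads in ESC 4sU RNA and 2.01%, 2.18% and 2.17% in EpiLC 4sU RNA. In total RNA they held 1.21%, 1.37% and 1.84% in ESCs and 0.879%, 1.05% and 0.996% in EpiLCs. The cell types did not overlap in either assay, and the ESC mean was 2.02 times the EpiLC mean in 4sU RNA and 1.51 times in total RNA (exact two-sided permutation p = 0.1 in each, the smallest possible with 3 against 3). Without ESC replicate 3, the highest library in both assays, the ratios were 1.76 and 1.32. In total RNA, mt-Co1 held 74.6% of chrM reads in ESCs and 66.2% in EpiLCs, so the share there was taken largely against mt-Co1. mt-Nd6 alone held 4.23% of the 4.29% in ESC 4sU RNA and 2.10% of the 2.12% in EpiLC 4sU RNA. Within the reads of transfer RNA genes, the minus-strand share was 8.12% ± 1.39 in ESC and 5.32% ± 0.44 in EpiLC 4sU RNA (SD, n = 3, exact permutation p = 0.1, no overlap). In total RNA it was 18.7% ± 8.7 and 13.4% ± 4.9, which overlapped (exact permutation p = 0.5). In 4sU RNA, mt-Tp gave most of the minus-strand reads of transfer RNA genes, and mt-Tl1 most of the reads of all transfer RNA genes. The share there thus rests largely on these genes, both called lower above.

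The same held when mt-Nd6 was set against either plus-strand messenger that flanks it. Per 100 reads of mt-Nd5, the complex I gene whose 3′ end overlaps it from the opposite strand, mt-Nd6 had 29.1, 29.5 and 45.8 reads in ESC 4sU RNA and 13.9, 15.7 and 15.5 in EpiLC 4sU RNA. In total RNA the values were 27.0, 30.2 and 34.6 in ESCs and 15.1, 18.4 and 17.2 in EpiLCs. Against mt-Cytb, which lies on the other side, ESCs had 2.27 times the EpiLC value in 4sU RNA and 2.35 times in total RNA, and 1.89 and 1.97 times without ESC replicate 3. None of these ratios overlapped between the cell types. The 4sU and total libraries came from RNA that was split after extraction and are not independent cultures.

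A fit in which every library was scaled to its plus-strand chrM reads gave the change of each minus-strand gene relative to that strand. This fit was added after the data had been seen. In 4sU RNA, mt-Nd6 was at -1.02 (SE 0.15, limma-voom adjusted p = 4.38e-05), and mt-Tp at -1.24 (SE 0.29, adjusted p = 0.0017) on the log2 scale. Without ESC replicate 3, mt-Nd6 was at -0.84 (adjusted p = 2.82e-07), under the fold needed for a call. In total RNA, mt-Nd6 was at -0.59 (SE 0.19, adjusted p = 0.013). The plus strand was itself uneven. Its transfer RNA gene mt-Tl1 was at -0.88 in 4sU RNA (SE 0.14, limma-voom adjusted p = 5.63e-05). Without ESC replicate 3, mt-Tl1 was at -0.85 (adjusted p = 1.30e-05), beside -0.84 for mt-Nd6. On the same scale mt-Co1 was at -0.30 in 4sU RNA (SE 0.07, adjusted p = 0.0016), while mt-Nd1, mt-Nd2, mt-Nd4, mt-Nd5 and mt-Cytb lay between -0.13 and 0.20. In total RNA, mt-Co1 held 74.6% of chrM reads in ESCs and 66.2% in EpiLCs, so the scale there was largely that of mt-Co1. In that RNA mt-Co1 was at -0.18 and the other plus-strand messengers lay between 0.26 (mt-Nd5) and 0.82 (mt-Nd4).

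**Figure D5:**
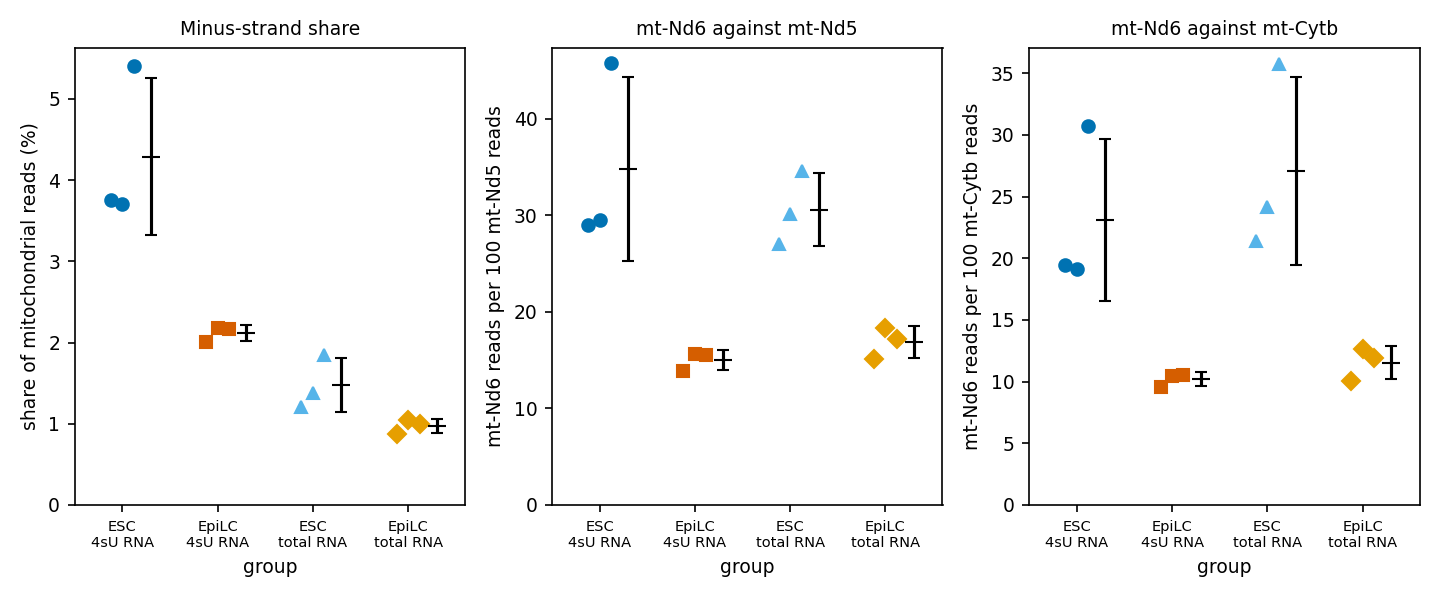
Minus-strand reads in each library. The left panel gives the percent of chrM reads on minus-strand genes, nearly all of them mt-Nd6, and the others give mt-Nd6 reads per 100 reads of mt-Nd5 and of mt-Cytb; points are libraries, and the black marks are means with SD (n = 3). The EpiLC libraries lie below the ESC libraries of the same assay in each panel, and ESC replicate 3 is the highest library in each ESC group.

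The stability change, total minus 4sU RNA in EpiLCs against the same in ESCs, was not called for any of the 17 genes by the rule that includes a doubling, where 1.54% of all genes tested were called. These values come from the fit with no replicate block. With a replicate block by number 1 of the 17 was called (mt-Tl1), and with a block by culture (the 4sU and total library of one cell type and number) 2 were, mt-Tl1 (1.91, adjusted p = 0.027) and mt-Tp (1.43, adjusted p = 0.045), where 2.40% and 3.58% of all genes tested were called. Both genes had few reads in each total library, 6 to 12 for mt-Tl1 and 5 to 15 for mt-Tp. The 17 include mt-Tn and mt-Tq, which the filter chose by ESC 4sU RNA, and of the other 15 none was called without a block. With an adjusted p under 0.05 alone, 3 genes were higher, against 2.72% of all genes tested, namely mt-Nd4 (0.83, SE 0.15, adjusted p = 0.011), mt-Nd1 (0.69, SE 0.13, adjusted p = 0.013) and mt-Cytb (0.67, SE 0.16, adjusted p = 0.034). mt-Cytb lost this when any of 9 single libraries was left out, and mt-Nd1 without EpiLC 4sU replicate 1 (adjusted p = 0.060) or 3 (adjusted p = 0.054). For these 3 genes the 4sU RNA was lower in EpiLCs while the total RNA was not. mt-Nd6 (0.62, SE 0.24, adjusted p = 0.14) and mt-Co1 (0.32, SE 0.14, adjusted p = 0.20), lower in both kinds of RNA, did not pass. With the block by culture, mt-Nd6 (adjusted p = 0.0075) and mt-Nd2 (0.49, adjusted p = 0.014) also had an adjusted p under 0.05, and 7 of the 17 genes did in all. The transfer RNA genes ranged from 0.14 (mt-Tf) to 1.99 (mt-Tl1) with SEs of 0.63 to 1.15 and none passed. Leaving out ESC 4sU replicate 1 brought mt-Tl1 past the threshold (2.17), and leaving out ESC total replicate 3 brought mt-Tv (2.22) and mt-Tq (2.24), the latter chosen by the filter through ESC 4sU RNA. mt-Tf was at -0.19 without ESC replicate 3. The median log2 difference of the 7 messengers was 0.62, and that of all genes tested 0.11. Stability here is a ratio of 2 scaled libraries and holds only relative to other RNAs.

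Nuclear genes whose products act on mitochondrial DNA and RNA were taken from 4 lists. Of these 42 genes, 3 (7.14%) were called lower in total RNA and 4 (9.52%) in 4sU RNA, against 11.2% and 13.5% of all genes tested. None was called higher, against 16.3% of all genes tested in total RNA and 11.9% in 4sU RNA. Their median log2 difference was -0.20 in total RNA and -0.18 in 4sU RNA. None was called for stability, which is near the 1.54% of all genes tested that were called.

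The transcription list held 10 genes. Polrmt, the mitochondrial RNA polymerase, was at -0.57 in total RNA (SE 0.08, adjusted p = 1.47e-05) and -0.34 in 4sU RNA (SE 0.15, adjusted p = 0.070). Tfam, which packages mitochondrial DNA and helps to start transcription, was at 0.11 and 0.18 in total and 4sU RNA, Tfb2m, the other initiation factor, at -0.17 and -0.43, and Tefm, an elongation factor, at -0.34 and -0.46, and none of these was called. Mterf2, of the termination factor family, was the one gene of this list that was called, in 4sU RNA (-1.22, SE 0.21, adjusted p = 0.00022).

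Of the processing list (14 genes), Grsf1 and Fastkd1 were called lower in both kinds of RNA. Grsf1, an RNA-binding protein of the mitochondrial RNA granules, fell from 385 ± 20.5 CPM (SD, n = 3) in ESC total RNA to 118 ± 8.5 in EpiLC total RNA (log2 difference -1.71, SE 0.09, adjusted p = 8.42e-10) and changed by -1.59 in 4sU RNA. Fastkd1 changed by -1.11 in total RNA and -1.09 in 4sU RNA. Among the maintenance genes (12), Rrm2b, a ribonucleotide reductase subunit that supplies nucleotides for mitochondrial DNA, was called lower in both (-1.11 and -1.05), and in total RNA without ESC total replicate 3 it was at -0.85, under the fold for a call. In 4sU RNA its call was lost without ESC 4sU replicate 2 or 3, EpiLC 4sU replicate 1 or 2, or ESC total replicate 1 (-0.83 to -1.02), and that of Fastkd1 without EpiLC 4sU replicate 1 (-0.91). In the decay list (6 genes) none was called. Lrpprc and Slirp, partners in a complex that stabilizes mitochondrial messenger RNA, were at -0.17 and -0.43 in total RNA, and Pnpt1 and Supv3l1, of the degrading complex, were at 0.22 and -0.57. The relation of these genes to the mitochondrial RNAs was not tested.

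The nuclear subunits of the same respiratory complexes were set beside the mitochondrial ones. Of 71 subunits, 4 (5.63%) were called lower in total RNA and 5 (7.04%) in 4sU RNA, against 11.2% and 13.5% of all genes tested, and none was called higher, against 16.3% and 11.9%. Their median log2 difference was -0.51 in total RNA and -0.46 in 4sU RNA, where that of the 7 mitochondrial messengers was 0.03 and -0.41. The largest change in total RNA was that of the complex I subunit Ndufb4 (-1.50, SE 0.14, adjusted p = 2.22e-07), followed by the complex IV subunit Cox5a (-1.36), the complex III subunit Uqcrc1 (-1.01) and the complex I subunit Ndufb5 (-1.01). In 4sU RNA the 5 called were Ndufv3 (-1.49), Ndufb4 (-1.14), Cox5a (-1.13), Ndufa3 (-1.03) and Uqcr10 (-1.03). Leaving out single libraries took several of these under the fold or p threshold. In total RNA this held for Uqcrc1 (ESC or EpiLC total replicate 1, -0.98 in each) and Ndufb5 (ESC total replicate 1 or 2, EpiLC total replicate 1 or EpiLC 4sU replicate 2, between -0.96 and the fold threshold). In 4sU RNA it held for Cox5a (ESC 4sU replicate 3, -0.94), Ndufb4 (ESC or EpiLC 4sU replicate 2, -0.84 and -0.99), Ndufa3 (ESC 4sU replicate 2 or 3, EpiLC 4sU replicate 3 or ESC total replicate 1, -0.86 to -0.98) and Uqcr10 (ESC 4sU replicate 3, EpiLC 4sU replicate 1 or 3, or ESC total replicate 1, -0.89 to -0.97). In ESCs, 59 of the 71 nuclear subunits were called higher in total RNA than in 4sU RNA (23.7% of all genes tested) with a median of 1.82, and all 7 mitochondrial messengers were called lower, with a median of -5.53.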

How the data were processed

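The authors deposited unnormalized counts of reads for each gene in 12 libraries. Per the labels and the study's methods, the authors trimmed strand-specific single-end reads of 50 bases (cutadapt 1.14), aligned them to mm10 with STAR 2.5.3a, keeping reads with 1 position, and summed them over the exons of GENCODE M14 genes, without ribosomal RNA genes, by strand with featureCounts 1.5.3. A read over 2 genes of the same strand was not counted. The 92 spike-in rows had 0 reads.

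The 14731 genes that reached 3 CPM in 3 or more libraries entered 1 limma-voom fit of 4 groups (limma 3.58.1; TMM scaling by edgeR 4.0.16; R 4.3.3), after the study's methods. Calls needed a Benjamini-Hochberg adjusted p under 0.05 over all genes tested and an absolute log2 fold change over 1. Adjusted p-values are limma-voom's unless another tool is named. Shares of reads were compared by exact permutation tests (scipy 1.17.1). The fit was tested on simulated counts with known changes in EpiLC total RNA only. The simulation held no other difference between assays or cell types and no outlying replicate. SEs come from the limma-voom fit and SDs from the 3 libraries of a group, so both measure the spread between libraries. Reads carried no molecular identifiers. Levels per length used the exonic length in the table.

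Gene types, sequences and 50-base windows came from GENCODE M21 transcripts; a genome sequence was not used here. Every chrM gene is a member, each messenger gene and each tested transfer RNA gene is given, and nuclear genes came from fixed lists. Members and lists were chosen with earlier results of these data known. Alternatives covered scaling, filter, edgeR, DESeq2 1.42.0, quality weights, thresholds, blocks and left-out libraries. Deviations of 4sU and total libraries of one number correlated at 0.194 to 0.437 in ESCs, each over 0.1, and at 0.021 to 0.082 in EpiLCs, none over 0.1, so replicate numbers were not shown to pair the libraries in both cell types. Stability is given with and without a block.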

Additional observations from a re-analysis of the deposited data

Results flagged for a closer look

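The mitochondrial messengers mt-Nd4, mt-Nd1 and mt-Cytb differed between the cell types in how total RNA stood to 4sU RNA, by the interaction term of the fit. The log2 difference was higher in EpiLCs by 0.83 for mt-Nd4 (adjusted p = 0.011, limma-voom), 0.69 for mt-Nd1 (adjusted p = 0.013) and 0.67 for mt-Cytb (adjusted p = 0.034). Each rests on total and 4sU libraries of 3 against 3. mt-Cytb lost its adjusted p under 0.05 when any of 9 single libraries was left out, and mt-Nd1 without EpiLC 4sU replicate 1 (adjusted p = 0.060) or 3 (adjusted p = 0.054).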

How the results depend on the processing

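The 7 mitochondrial messengers kept their direction in 4sU RNA and in total against 4sU RNA under every alternative run except the scaling to plus-strand chrM reads, where mt-Co1 in total against 4sU RNA was at 2.19 in ESCs and 2.31 in EpiLCs and mt-Nd2, mt-Nd4, mt-Nd5 and mt-Cytb in 4sU RNA were above 0. The number of genes called in total RNA, 0 of 17, became 1 without the expression filter, 1 with a minimum of 1 CPM, 4 with sample quality weights, 3 with no fold threshold, 1 without ESC replicate 3 in both assays (mt-Tv), and 0 to 2 with single libraries left out (2 without ESC total replicate 1 or 3, 1 without EpiLC total replicate 1). Of all 14731 genes tested, 2407 were called higher and 1652 lower in total RNA in the main fit. The calls over all genes were 2615 and 1672 with quality weights and 4624 and 4729 with no fold threshold. They were 4241 and 2866 of 32144 genes without the filter and 3142 and 2176 of 17806 with the 1 CPM minimum. Without ESC replicate 3 in both assays they were 2554 and 1479 of 14309. In 4sU RNA the count of 4 members (with mt-Tn) became 12 with no fold threshold and was 3 to 5 with single libraries left out. Over all genes tested, 1756 were called higher and 1995 lower there in the main fit. With no fold threshold, 3485 and 4246 were. For stability the count of 0 members became 1 with a minimum of 1 CPM, 1 with edgeR, 1 with DESeq2, 5 with quality weights, 3 with no fold threshold, 2 without ESC replicate 3 in both assays, and 0 to 2 with single libraries left out (1 without ESC 4sU replicate 1, 2 without ESC total replicate 3). Of all 14731 genes tested, 182 were called higher and 45 lower for stability in the main fit. The calls over all genes were 202 and 53 with edgeR and 177 and 81 with DESeq2. They were 738 and 108 with quality weights and 401 and 277 with no fold threshold. With the 1 CPM minimum they were 169 and 49 of 17806 genes. They were 680 and 99 of 14309 without ESC replicate 3 and 572 and 86 of 14649 without ESC total replicate 3. Of the 17 members, a replicate block by number gave 1 and a replicate block by culture gave 2 for stability. Of all genes tested, 2.40% and 3.58% were called. The replicate numbers were not shown to pair libraries in EpiLCs. The total RNA difference of mt-Nd1 (0.03) reversed to -0.048 without the filter, -0.023 with weights and -0.035 without ESC replicate 3, and ranged from -0.027 to 0.079 with single libraries left out; that of mt-Nd5 (-0.08) became 0.0048 with library totals. mt-Tf rested on ESC 4sU replicate 3 (78 reads, against 16 and 22): in 4sU RNA it was at 0.022 with weights, 0.42 without ESC replicate 3 and -0.68 to 0.51 with single libraries left out, and its stability was at -0.19 and -0.62 to 0.59. Relative to the plus strand, mt-Tp in total RNA (0.15) became -0.11 with edgeR. Over read positions without nuclear copies, mt-Co1 was 0.591 (ESC 4sU), 0.525 (EpiLC 4sU), 9.13 (ESC total) and 6.24 (EpiLC total) times mt-Nd1. The planned count of positions unique in the whole genome was not run. The causes of these shifts were not tested. Scaling by library totals moved the median of all genes in total against 4sU RNA by -0.23 in ESCs and -0.16 in EpiLCs, and the share of calls that were higher from 46.9% to 36.9% in ESCs; TMM within each assay moved it from 51.0% to 40.3% in EpiLCs, and median-of-ratios scaling moved it from 80.2% to 66.7% for stability. Without mt-Co1, added after the data had been seen, the difference in chrM share of total RNA (EpiLC minus ESC, in percentage points) went from -0.0803 to 0.0144, and to 0.00706 after TMM scaling. Low counts limit the transfer RNA genes, and 18 members were not tested.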
